A study of Mus musculus with 2 samples.

Results

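The genes described here take up cholesterol into cells of the adrenal gland, store it as fatty acid ester, release it and carry it between membranes. They are 36 members of a list chosen by gene symbol, out of 22015 nuclear protein-coding genes in the annotation, and all 36 were found. Total RNA was sequenced from adrenal glands of male B6CASTF1/J mice, the first-generation cross of C57BL/6J and CAST/EiJ, at 14 days of age. There was 1 group with 2 libraries, labelled biological replicates 1 and 2 and started from 300 ng of RNA each. No genotype or treatment other than the cross is given, so no conditions could be compared and no p-value is given. The labels speak of 3x Males without saying whether animals were pooled. The number behind that wording is the same for both libraries in the sample description and differs in the tissue description. The spread between the libraries may therefore not be a spread between separate animals.

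The adrenal cortex makes steroid hormones from cholesterol, and it keeps a reserve of cholesterol ester in lipid droplets. In rodents much of that cholesterol is taken from high-density lipoprotein by the receptor encoded by Scarb1, and some comes from lipoproteins that are swallowed whole and broken down in lysosomes. Hormonal stimulation leads to hydrolysis of the stored ester, and the freed cholesterol is carried to mitochondria, where steroid synthesis begins.

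The sequences that bear on the results are 3 exons that separate protein forms of the lipoprotein receptors and 5 short motif matches upstream of gene starts. Exon 12 of Scarb1 lies at chr5:125281105-125281233 of mm10 on the minus strand, spans 129 bases, and holds the last 126 coding bases of Scarb1-201 followed by the stop codon. It is left out of Scarb1-202, whose reading frame ends in the next exon. Exon 4 of Vldlr lies at chr19:27236240-27236362 on the plus strand and spans 123 coding bases. Exon 16 of Vldlr, which encodes the stretch that carries O-linked sugars, lies at chr19:27246593-27246676 and spans 84 coding bases. Capitals mark the exon and lower case the 15 spliced bases on each side, from the GENCODE M21 transcripts.
Scarb1 exon 12: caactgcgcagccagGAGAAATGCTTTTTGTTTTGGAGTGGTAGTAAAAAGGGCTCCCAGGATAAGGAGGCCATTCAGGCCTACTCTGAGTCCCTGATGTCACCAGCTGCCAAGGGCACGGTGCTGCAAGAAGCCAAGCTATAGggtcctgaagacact
Vldlr exon 4: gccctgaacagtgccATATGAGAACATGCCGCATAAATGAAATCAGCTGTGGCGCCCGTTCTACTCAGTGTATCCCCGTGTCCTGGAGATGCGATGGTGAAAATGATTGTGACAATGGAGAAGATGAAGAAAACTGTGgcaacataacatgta
Vldlr exon 16: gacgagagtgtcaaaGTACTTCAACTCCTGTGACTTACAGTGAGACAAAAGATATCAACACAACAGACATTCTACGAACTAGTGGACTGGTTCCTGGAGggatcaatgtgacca

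Promoters, taken as 250 bases before to 50 bases after a gene start in the RefSeq table of GRCm38.p6, were searched for the monomer site of NR5A1, the transcription factor of steroid-making cells, and for the sterol regulatory element. The table held 38 promoters for 27 of the 36 genes and none for Soat2, Abcg1, Vdac2, Gramd1b, Tspo, Stard4, Npc1, Acbd3 and Scarb1. On either strand, the monomer site AAGGTCA was in 4 of the 38 promoters, of Abhd5, Lrp8, Osbpl2 and Vdac1, and in 4.72% of all 32851 promoters in the table. The sterol regulatory element, searched as TCACNCCAC, was in 1, of Stard3, and in 1.24% of all promoters. None of the 38 held the cyclic AMP response element TGACGTCA, the lysosomal gene motif TCACGTGA, or direct repeats of the nuclear receptor site at spacings DR4 or DR1, which were in 1.79%, 0.974%, 0.0152% and 0.0396% of all promoters. No 2 matches overlapped in these promoters. A match is one of letters alone, and binding was not tested. The windows follow on the strand of the gene, with the match in capitals. Those of Abhd5 (chr9:122351522-122351578), Osbpl2 (chr2:180119070-180119126) and Stard3 (chr11:98358132-98358190) lie upstream of the annotated gene. Those of Lrp8 (chr4:107830703-107830754) and Vdac1 (chr11:52361466-52361522) lie in introns, before inner starts. The matches begin 69, 211, 211, 230 and 106 bases before the RefSeq start, in that order of genes. For Vdac1 that start lies 462 bases from the nearest transcript start in GENCODE. Vdac1-202, which took 92.7% of Vdac1 TPM by RSEM, begins 9 bases from the other Vdac1 start, whose promoter held no match.
Abhd5: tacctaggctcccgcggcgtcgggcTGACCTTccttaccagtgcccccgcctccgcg
Osbpl2: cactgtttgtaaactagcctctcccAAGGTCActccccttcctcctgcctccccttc
Lrp8: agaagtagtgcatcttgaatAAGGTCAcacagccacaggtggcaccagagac
Vdac1: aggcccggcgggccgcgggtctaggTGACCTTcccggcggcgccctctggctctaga
Stard3: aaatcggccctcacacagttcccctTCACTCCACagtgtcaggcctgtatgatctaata

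The libraries held 32963248 and 36260745 expected counts in replicates 1 and 2, of which nuclear protein-coding genes took 17154352 and 19024838, and the 36 genes 187902 and 241180. Levels are in TPM (transcript abundance scaled for transcript length and sequencing depth) from the RSEM values of the authors, given for replicates 1 and 2 and, after ±, as SD over the 2 libraries. Defining markers of the labelled tissue were present: 8 of 8 cortex genes and 8 of 8 chromaffin cell genes of the medulla were at 1 TPM or more in both libraries, with summed levels of 4934 and 5085 TPM for cortex and 1333 and 1366 for medulla. Genes of other tissues were present as well. Adipocyte markers summed to 2911 and 2969 TPM, and endothelial markers to 220 and 194. Hepatocyte markers summed to 312 and 5395 TPM and lymphocyte markers to 79.1 and 10.5, so these lists set the libraries apart. No gene of the 8 marker lists was at 0 counts in either library. In such bulk samples, fewer cells of a type and less RNA per cell cannot be told apart.

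Most of the 36 genes were well above the typical messenger. At least 1 TPM in both libraries was reached by 34 of 36, against 54.2% of all nuclear protein-coding genes, and the members below it in replicate 1 were Soat2 and Gramd1c. By mean level, 8 genes stood at 100 TPM or more, 20 between 10 and 100, 6 between 1 and 10, and 2 under 1. Their median of 22.8 TPM compares with 8.28 TPM over nuclear protein-coding genes that averaged 1 TPM or more, and 14 ranked among the 1000 highest. Together they took 0.885% of nuclear protein-coding TPM in replicate 1 and 1.17% in replicate 2. Apoe made most of that gap, since the other 35 took 0.790% and 0.818%. In order of mean level Apoe was followed by Scarb1, Dbi, Soat1, Abcb1b, Gramd1b, Lipe, Scp2 and Tspo. Of the 35 pairs of neighbours in the order, 23 overlapped over the 2 libraries, among them Apoe and Scarb1, Abcb1b and Gramd1b, and Lipe, Scp2 and Tspo. Scarb1 stood apart from Dbi below it, Dbi from Soat1, and Soat1 from Abcb1b. The order differed by kallisto, the second quantification deposited by the authors. There Scarb1 led Apoe as a mean, at 934 beside 790 TPM. Soat1 (219 and 237 TPM) and Abcb1b (169 and 252) overlapped, and Scp2 and Tspo lay above Soat1 as means.

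**Figure D1:**
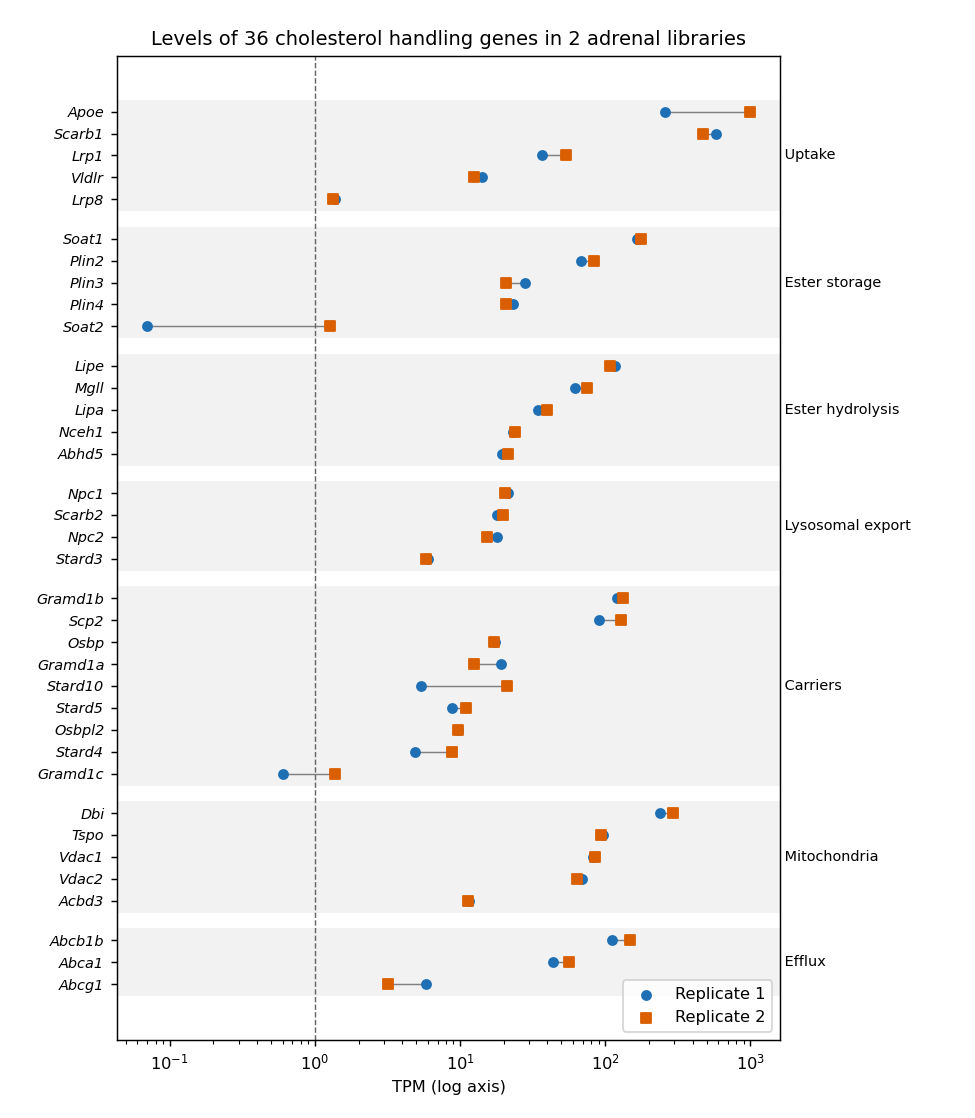
TPM (horizontal log axis) of the 36 genes, grouped by role, with a circle for replicate 1, a square for replicate 2, a line joining them and a dashed line at 1 TPM. Apoe and Scarb1 are the highest genes, Soat1, Lipe, Dbi and Abcb1b lie above the other genes of their roles, Soat2 and Gramd1c cross the dashed line, and Apoe, Soat2 and Stard10 have the longest joining lines.

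Among the uptake genes, Scarb1, the receptor for selective uptake of ester from high-density lipoprotein, was at 577 and 474 TPM in the 2 libraries (525 ± 72.6, n = 2). The gene spans chr5:125277087-125341094 and ranked 30th by level among nuclear protein-coding genes. Lrp1, a large endocytic receptor for lipoprotein remnants and many other ligands, was at 36.7 and 54.1 TPM. Vldlr, which binds apolipoprotein E, was at 14.1 and 12.6 TPM. Its close relative Lrp8, known from reelin signalling in brain, was the lowest of the group at 1.38 and 1.34 TPM. The receptors therefore kept the order Scarb1, Lrp1, Vldlr, Lrp8 in both libraries with no overlap. Scarb1 exceeded Lrp1 by 11.7-fold (log2 ratio 3.55 ± 0.596) and Vldlr exceeded Lrp8 by 9.80-fold (log2 3.29 ± 0.0917). The first excess was 18.2-fold by kallisto. Over complete coding transcripts alone, which are described further on, the excesses were 18.5-fold and 23.4-fold. Apoe, the ligand of several of these receptors, was at 259 TPM in replicate 1 and 992 in replicate 2, so its mean of 625 ± 518 describes neither library.

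Both complete coding transcripts of Scarb1 were found, and the form with exon 12 prevailed. Scarb1-201, with a coding sequence of 1527 bases, took 91.1% ± 0.300 of the TPM of the pair, and Scarb1-202, with 1518 coding bases and without the exon printed above, took 8.94% ± 0.300. With kallisto, the share of Scarb1-202 was 8.52% in replicate 1 and 13.2% in replicate 2. The preference for the exon 12 form was thus far larger than the difference between libraries or quantifications. Vldlr was more evenly divided. Vldlr-207, which has exon 16, took 54.2% and 59.9% of the TPM of the 3 complete coding transcripts in replicates 1 and 2, and by kallisto 45.6% and 60.8%. Vldlr-202, which lacks both exon 4 and exon 16, took 13.0% in replicate 1 and 0% in replicate 2, and by kallisto 23.2% and 4.59%. Which of the forms with and without exon 16 led was therefore not settled by these libraries, since the kallisto shares fell on either side of an even split.

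Of the ester storage genes, Soat1, the acyltransferase that makes cholesterol ester in the adrenal cortex, was the highest at 166 and 177 TPM (171 ± 8.06, n = 2), from chr1:156424525-156474331. Soat2, the acyltransferase of liver and intestine, was at 0.07 TPM with 5 counts in replicate 1 and at 1.28 TPM with 96 counts in replicate 2. The excess of Soat1 over Soat2 was 573-fold as the mean of the log2 ratios, 9.16 ± 2.90, but it ranged from 138-fold in replicate 2 to 2368-fold in replicate 1, and on complete coding transcripts from 66.5-fold to 1197-fold. Soat1 was the higher gene in both libraries at either value. Droplet coat proteins followed in the order Plin2, Plin3 and Plin4. Plin2, which coats droplets in most cells, was at 68.5 and 84.1 TPM. Plin3, which also binds nascent droplets, was at 28.1 and 20.8 TPM, and Plin4, a coat protein abundant in fat, at 23.3 and 20.7. Plin2 lay above both in each library, by 3.14-fold over Plin3 (log2 1.65 ± 0.518), whereas Plin3 and Plin4 overlapped. The order of these 2 depended on the quantification: by kallisto Plin3 (57.3 and 40.1 TPM) lay above Plin4 (33.8 and 29.3), and on complete coding transcripts it lay below, at 15.2 and 11.3 TPM beside 23.3 and 20.7.

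Ester hydrolysis was led by Lipe, hormone-sensitive lipase, which cleaves cholesterol ester as well as glycerides. It stood at 117 and 108 TPM (112 ± 6.38, n = 2), from chr7:25379527-25398710. Mgll, which cleaves monoacylglycerols, was at 61.9 and 75.2 TPM. Lipa, the acid lipase that hydrolyses ester inside lysosomes, was at 34.2 and 40.0 TPM. Nceh1, a neutral ester hydrolase known from macrophages, was at 23.3 and 23.8 TPM, and Abhd5, the activator of the triglyceride lipase Pnpla2, at 19.4 and 21.6. The order Lipe, Mgll, Lipa, Nceh1, Abhd5 was the same in both libraries, but by kallisto Abhd5 (33.3 and 33.7 TPM) lay above Nceh1 (28.2 and 33.0) in both. Lipe exceeded Nceh1 by 4.77-fold (log2 2.25 ± 0.103) and Lipa by 3.04-fold (log2 1.60 ± 0.241). Lipe, Mgll, Abhd5, Plin2 and Plin4 are also genes of adipocytes, whose markers Fabp4 (1427 and 1327 TPM) and Adipoq (84.9 and 85.6) were present in both libraries. Of the 8 adipocyte markers, Lep (1.58 and 4.59 TPM) and Retn (2.54 and 5.37), the lowest of the list, were over 1.5-fold higher in replicate 2. The other 6 lay within 1.5-fold, Fabp4 and Cidea lower in replicate 2 and the rest higher. Of the members named, Plin2, Mgll and Abhd5 were higher in replicate 2 and Lipe and Plin4 lower, each by less than 1.5-fold. The part of that tissue in these levels was not tested. Lipe has several starts in the annotation: Lipe-202 took 60.7% ± 3.74 of its TPM and Lipe-208 20.1% ± 2.08, both with a coding sequence of 2277 bases. By kallisto their shares were 47.1% ± 1.96 and 35.1% ± 2.92, so Lipe-202 led in both quantifications.

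Lysosomal export genes were lower and close together. Npc1, the membrane protein that moves cholesterol out of lysosomes, was at 21.3 and 20.4 TPM. Npc2, the soluble protein that hands cholesterol to Npc1, was at 18.0 and 15.5 TPM, which is 1.25-fold below Npc1 (log2 ratio of Npc2 to Npc1 -0.33 ± 0.110) and below it in both libraries. By kallisto the pair was nearly even, with Npc1 1.03-fold higher, and on complete coding transcripts Npc2 was above Npc1 in replicate 1 and below it in replicate 2. Scarb2, a lysosomal membrane protein related to Scarb1 that carries a glucosidase to lysosomes, was at 18.0 and 19.9 TPM, below Npc1 in both libraries and overlapping the range of Npc2. On complete coding transcripts Scarb2 lay above Npc1 in both libraries, at 17.9 and 19.8 TPM beside 15.3 and 15.2, and by kallisto it was higher as a mean, so the order of these 3 genes was not settled. Stard3, which tethers late endosomes and binds cholesterol, was the lowest at 6.05 and 5.81 TPM. For each of the 4 genes the libraries lay within 1.5-fold of each other.

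Carriers between membranes ranged from high to barely detected. Gramd1b, the Aster protein that draws cholesterol from the plasma membrane to the endoplasmic reticulum, was at 120 and 132 TPM (126 ± 8.26, n = 2), from chr9:40293233-40531383. Its relatives were far lower, Gramd1a at 19.3 and 12.4 TPM and Gramd1c at 0.60 and 1.38. The excess of Gramd1b was 8.15-fold over Gramd1a (log2 3.03 ± 0.547) and 138-fold over Gramd1c (log2 7.11 ± 0.755), with no overlap. On complete coding transcripts the excess over Gramd1a was 26.0-fold, and by kallisto that over Gramd1c was 72.8-fold. Scp2, which encodes sterol carrier protein and a peroxisomal thiolase from a single locus, was at 90.3 and 129 TPM. By kallisto Scp2 (213 and 302 TPM) was above Gramd1b (151 and 162) in both libraries. Osbp, which exchanges cholesterol for a phosphoinositide at membrane contacts, was at 17.5 and 17.2 TPM, and its relative Osbpl2 at 9.63 and 9.75. These oxysterol-binding proteins had some of the closest pairs of values. Of the StAR-related carriers, Stard5 was at 8.74 and 10.9 TPM and Stard4, which carries sterols through the cytosol, at 4.89 and 8.77. Stard10, which transfers phospholipids, was at 5.39 and 21.02 TPM, so it was below Stard5 in replicate 1 and above it in replicate 2, whereas by kallisto it was above Stard5 in both. Stard4 lay below Stard3 in replicate 1 and above it in replicate 2 (log2 ratio of Stard3 to Stard4 -0.14 ± 0.637), and on complete coding transcripts it lay above Stard3 in both (log2 -0.80 ± 0.910).

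At the mitochondrion, Dbi, the acyl-CoA binding protein that is also a ligand of the translocator protein, was at 237 and 295 TPM (266 ± 40.7, n = 2). Tspo, the translocator protein of the outer membrane, was at 96.5 and 92.9 TPM. Vdac1 and Vdac2, the outer membrane channels, were at 82.3 and 84.4 TPM and at 69.4 and 64.4 TPM. Acbd3, which anchors protein kinase A near Tspo, was at 11.5 and 11.3 TPM. The order Dbi, Tspo, Vdac1, Vdac2, Acbd3 held in both libraries, and Vdac1 exceeded Vdac2 by 1.25-fold (log2 0.32 ± 0.102). Star, which brings cholesterol to the inner membrane and is not among the 36, was 3.67-fold above Scarb1. Efflux genes were led by Abcb1b, a drug and steroid pump of the rodent adrenal, at 111 and 148 TPM (129 ± 25.96, n = 2). Abca1, which loads cholesterol onto apolipoprotein A-I, was at 43.6 and 56.4 TPM. Abcg1, which passes cholesterol to formed lipoprotein particles, was at 5.82 and 3.17 TPM. The group kept this order in both libraries, with Abca1 11.5-fold over Abcg1 (log2 3.53 ± 0.883). Abcb1b exceeded its near-copy Abcb1a, at 6.98 and 6.68 TPM, by 18.8-fold (log2 4.23 ± 0.336). Reads of such copies can be assigned to either, and Abcb1b had fractional expected counts, as had Plin2, Scp2, Vdac2 and Dbi. The other 31 genes had counts within 0.005 of a whole number in both libraries.

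The libraries differed by over 1.5-fold in 5 of the 34 genes that averaged 1 TPM or more, against 11% of 12535 nuclear protein-coding genes above the same minimum. Higher in replicate 2 were 3, Apoe, Stard10 and Stard4, against 5.09% of all, and lower were 2, Abcg1 and Gramd1a, against 5.9%. Over 2-fold apart were 2, Apoe and Stard10, against 5.89%. Apoe was 3.83-fold higher in replicate 2, with 8478 and 34178 counts. Stard10 was 3.90-fold higher, with 217 and 958 counts. Stard4 was 1.79-fold higher by TPM with all transcripts, 1.52-fold by counts per nuclear protein-coding count (95% exact interval 1.37 to 1.69, counting error only) and 1.36-fold by kallisto, which is within the limit. In the other direction Abcg1 was 1.84-fold lower, with 754 and 439 counts. Gramd1a was 1.56-fold lower and thus nearest to the limit from the inside, with Lrp1 at 1.47-fold and Scp2 at 1.43-fold nearest from the outside. The count ranged from 4 to 7 with the scaling and the minimum. It was 4 by kallisto (14.3% of all genes), 6 with TMM factors (9.75%), 5 with spike-in scaling (11.9%) and 5 with TPM rescaled over nuclear protein-coding genes (11.2%). It was 5 on the log2(TPM + 1) scale (7.67%), 4 with a minimum of 5 TPM (5.54%), 7 with no minimum (20.9%) and 4 on complete coding transcripts (10.1%). The share of the members thus lay above that of all genes in some settings and below it in others. The median log2 ratio of the 34 genes, replicate 2 over replicate 1, was 0.033, beside -0.066 over all genes tested.

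Soat2, with a mean under 1 TPM, was left out of these counts. Its counts gave a ratio of 17.3 (95% exact interval 7.17 to 54.5, counting error only). Gramd1c, likewise under 1 TPM, had 53 and 93 counts and a ratio of 1.58 (1.12 to 2.26). Liver genes moved the same way as Apoe, Stard10 and Soat2: all 10 hepatocyte markers were higher in replicate 2, by a median of 17.0-fold, led by Alb at 173 and 3072 TPM and with Cyp1a2 lowest at 0.39 and 11.6 TPM. The lymphocyte list moved with Abcg1 and Gramd1a, with 9 of 9 genes lower in replicate 2. On complete coding transcripts alone, however, Gramd1a was not lower, at 3.66 and 3.71 TPM. The summed level of 8 macrophage genes was also lower in replicate 2, at 95.2 and 56.5 TPM. Lyz2 (52.0 and 17.9 TPM) made most of that fall and Csf1r was the other gene of the 8 past 1.5-fold, whereas C1qa, Adgre1 and Mrc1 were higher in replicate 2. The part of these tissues in the differences was not tested. Summed levels of the cortex and medulla lists were 1.03-fold and 1.02-fold higher in replicate 2, and none of their 16 genes was past 1.5-fold.

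**Figure D2:**
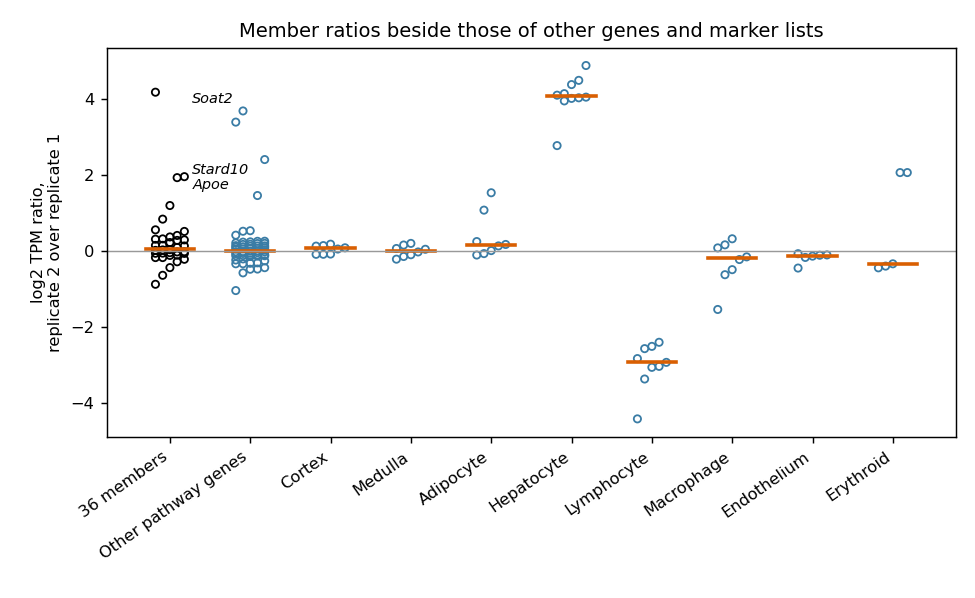
log2 TPM ratio of replicate 2 over replicate 1 (vertical axis) for each of the 36 genes, each of 57 other pathway genes and the genes of 8 marker lists, 1 circle per gene, with an orange bar at the median of each. The cortex and medulla genes lie close to 0, the hepatocyte genes lie above 0 with a median ratio of 17.0, and the lymphocyte genes lie below 0, while most of the 36 genes lie near 0 with Soat2, Stard10 and Apoe above.

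Intervals of the quantification itself were narrower than the distance between libraries for many genes. The credibility intervals of TPM deposited by the authors did not overlap for 19 of the 34 genes, against 20.5% of all genes tested. Of the 19, 12 were higher in replicate 2 and 7 lower, among them Scarb1, whose bounds, set around a posterior mean of TPM, were 560 to 573 TPM in replicate 1 and 461 to 473 in replicate 2. These bounds cover the assignment and counting of reads in 1 library and no spread between samples, and they are tighter for genes with more counts. Lipe, Plin3, Plin4 and Npc2 were the other genes with separate bounds that were lower in replicate 2 by less than 1.5-fold.

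Among 57 other genes of droplets, lipoproteins, sterol transfer and their regulation, 52 were at 1 TPM or more in both libraries. The highest were Star (1756 and 2099 TPM), the triglyceride lipase Pnpla2 (439 and 348), the droplet protein Cidea (396 and 378), the fatty acid transporter Cd36 (305 and 264) and the triglyceride-making Dgat2 (244 and 224). Pnpla2, the partner of Abhd5, thus stood above Lipe in both libraries. So did the carboxylesterase gene Ces1d, at 170 and 158 TPM. Of the 53 that averaged 1 TPM or more, 2 were higher in replicate 2 by over 1.5-fold, 1 was lower and 50 lay between. Lcat, the plasma enzyme that esterifies cholesterol on lipoproteins and is made in liver, was at 1.40 and 14.8 TPM, and the hepatic droplet gene Cideb was the other higher one. Hilpda, an inhibitor of Pnpla2, was the lower one. The regulators Srebf2, Nr1h2 and Nr1h3 were among the 50, and so was Insig1, at 1.45-fold higher.

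**Figure D3:**
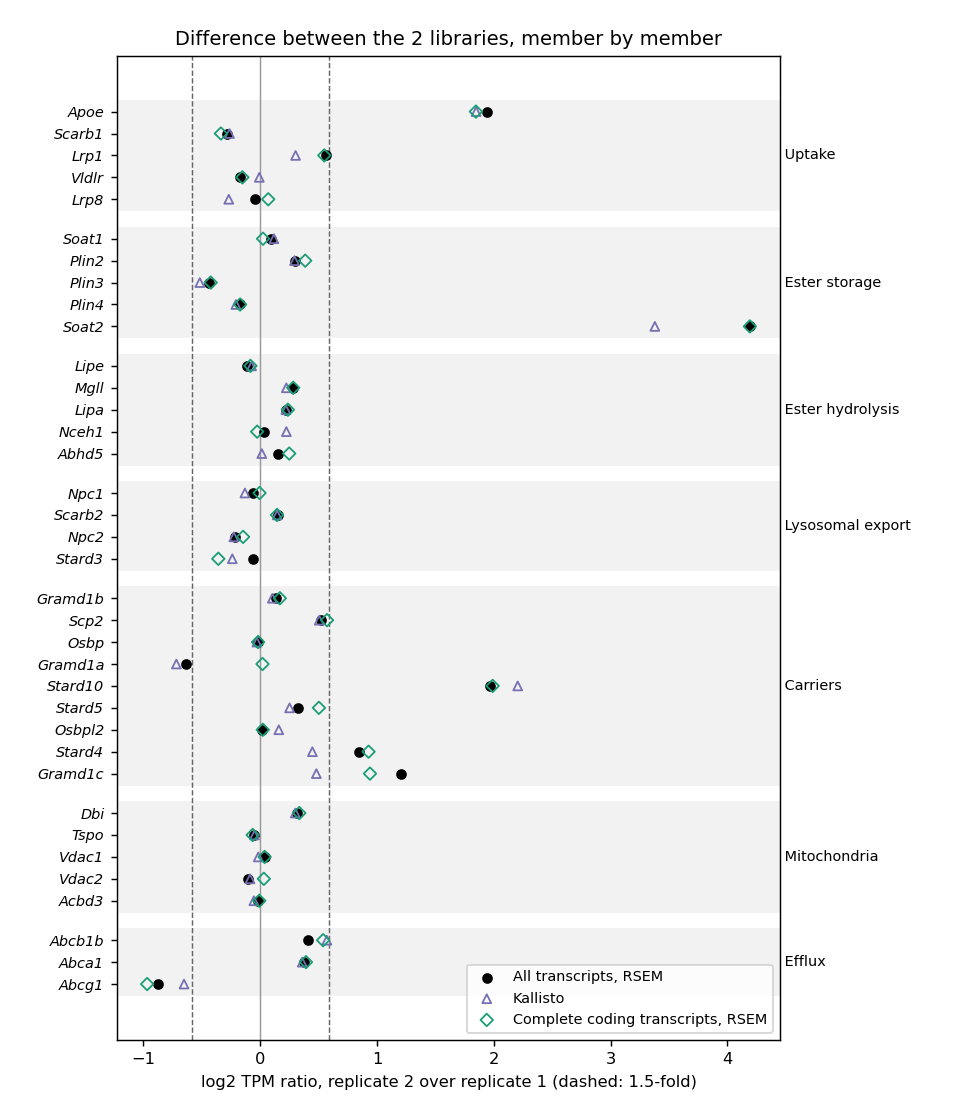
log2 TPM ratio of replicate 2 over replicate 1 (horizontal axis) for the 36 genes, by RSEM over all transcripts (filled circle), by kallisto (triangle) and by RSEM over complete coding transcripts alone (diamond), with dashed lines at 1.5-fold. Apoe, Stard10 and Soat2 lie far right by all 3 measures, Abcg1 lies left by all 3, and the diamond of Gramd1a lies at 0 while its circle and triangle lie left.

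How much of a gene's level belonged to complete coding transcripts differed among the 36. These are transcripts annotated as protein-coding with both ends of the coding sequence. Some of them encode a shorter protein, such as Abcg1-205, with 312 coding bases beside 1998 in Abcg1-201. By RSEM they took over 90% of TPM in both libraries for 15 genes and under 50% in both for 3, Abhd5, Gramd1a and Lrp8. By kallisto these 3 were under 50% too, as were Scp2 (30.1% and 34.3%), Plin3 (36.3% and 38.3%) and Gramd1c (40.4% and 49.3%). Tspo had 99.5% and 98.8% by RSEM but 52.8% and 49.7% by kallisto, and Stard10 95.5% and 97.1% but 59.3% and 28.9%. By RSEM, Soat1 had 90.5% and 89.7% of its counts but only 50.5% and 48.1% of its TPM on complete coding transcripts. The short partial model Soat1-206, with a length of 366 bases, took 18.3% of TPM with 2.18% of counts in replicate 1. On complete coding transcripts alone Soat1 stood at 83.8 and 85.2 TPM and moved from position 4 to position 9 in the order of the 36. Lrp1 showed the same gap, with 95.8% and 96.1% of counts but 59.0% and 58.5% of TPM. Scarb1 stayed at position 2, at 545 and 432 TPM.

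**Figure D4:**
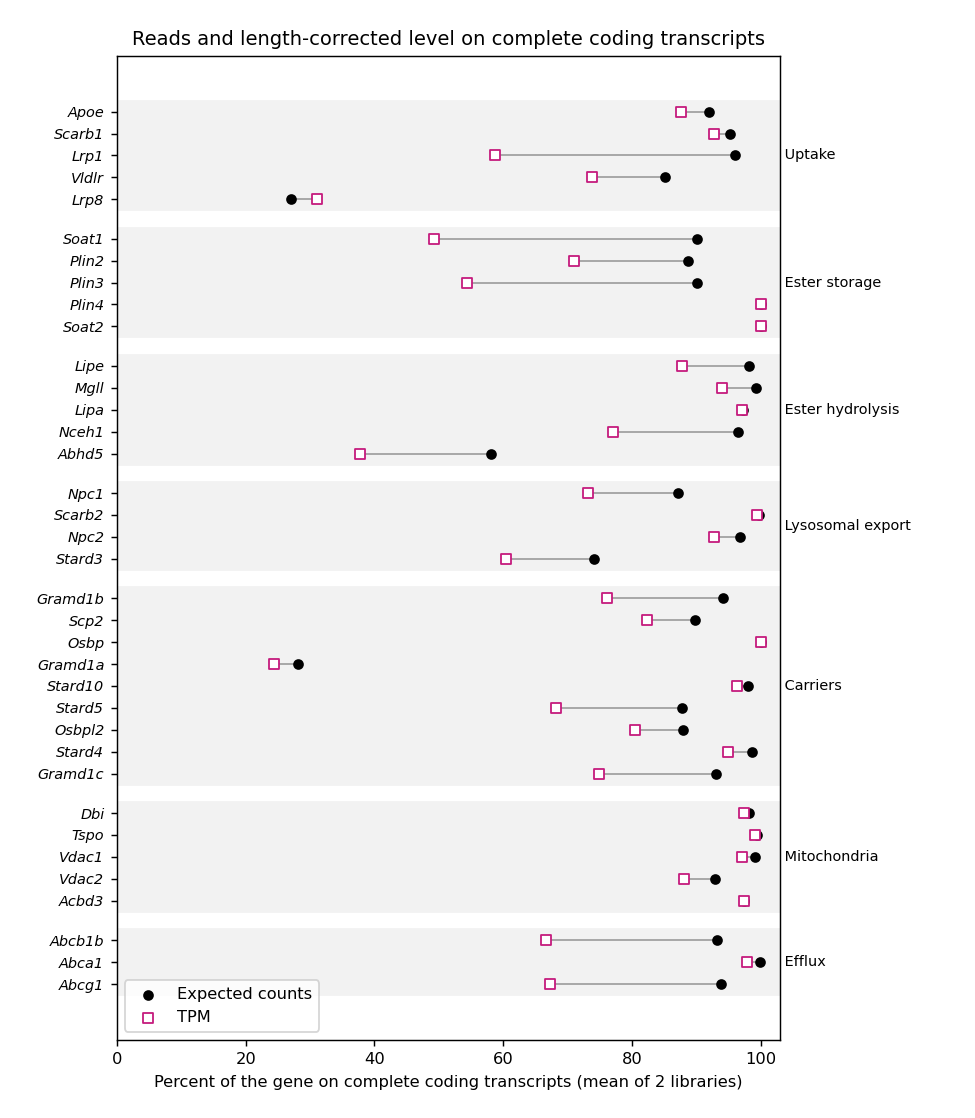
Percent of each gene's expected counts (filled circle) and of its TPM (open square) that lies on complete coding transcripts (horizontal axis), as means of the 2 libraries. Soat1, Lrp1 and Plin3 have circles at 90 or more and squares far to the left of them, whereas Gramd1a and Lrp8 are low by both measures.

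Gramd1a was the gene whose difference between libraries depended on the transcripts summed. Its single complete coding transcript with a level, Gramd1a-201, was at 3.66 and 3.71 TPM, a ratio of 1.01. The leading model Gramd1a-205, a retained intron transcript of 3722 bases, was at 6.86 and 4.29 TPM, and by kallisto Gramd1a-201 led as a mean, but in neither library: Gramd1a-209 had the largest share in replicate 1 and Gramd1a-205 in replicate 2. Without the other models Gramd1a was therefore not apart between the libraries. Abhd5 was led by Abhd5-201, annotated as a target of nonsense-mediated decay, at 53.9% ± 0.921 of TPM, and by kallisto at 58.4% ± 2.55. The coding Abhd5-204 took 33.7% ± 3.95 of TPM and, with its 3157 bases, 57.5% of counts in replicate 1. Both quantifications named the same leading transcript for 21 of 28 genes that averaged 10 TPM or more. The 7 others were Apoe, Dbi, Gramd1a, Lipa, Plin3, Scp2 and Stard10. For Apoe the transcripts that led, Apoe-209 by RSEM and Apoe-205 by kallisto, both have a coding sequence of 933 bases, so they differ outside the coding length. For Scp2, the short Scp2-202 with 429 coding bases took 67.2% ± 0.0421 of the TPM of the complete pair and the long Scp2-201 with 1641 coding bases the rest, but by kallisto they were nearly even, with Scp2-202 at 50.3% ± 3.26. Relative to the median of nuclear protein-coding genes, kallisto gave over 1.5-fold more than RSEM in both libraries for Stard10, Scp2, Tspo and Dbi, and less by that factor for none of the 36.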

How the data were processed

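Total RNA of 2 adrenal libraries was measured. Expected counts and TPM per gene and transcript were deposited by the authors, from transcriptome alignments to mm10 with GENCODE M21, per the deposited file list. Their columns are those of RSEM, per the file headers, and hold credibility bounds of TPM (unit signal), made by the authors at a level that the headers do not give. Estimated counts and TPM with the column names of kallisto, per the file headers, were summed here to genes. The sources used here name neither the aligner nor the tool versions. The TPM deposited by the authors covers all entries and the spike-ins too, so other entries lower the TPM of every gene. Which RNAs made up these entries was not measured. Nuclear protein-coding genes took 27.4% and 27.8% of TPM. The kallisto TPM of such genes was a median of 1.53 and 1.51 times the RSEM TPM. CAST reads were aligned to the mm10 reference, whose effect was not measured.

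Levels were summarised as mean and SD, and gene ratios on the log2 scale per library. With 1 group, no model was fitted, and ratios between libraries describe those libraries. A library difference was a TPM ratio over 1.5-fold with a mean of at least 1 TPM. Ratios of counts were taken per nuclear protein-coding count with 95% exact binomial intervals, which cover counting error only. The ratio step was tested on simulated counts. A chi-square of the counts over 14413 genes was 59.4 per degree of freedom, more than counting noise gives, although this does not show that the animals were separate. They are kept as 2 samples on the labels' word for biological replicates. The members and lists were chosen with earlier results of these data known. Every member is named with its TPM. The naming rule also covered the 5 highest other pathway genes and those over 1.5-fold apart with a mean of at least 5 TPM or paired with a member. Of transcripts it covered the leading ones of members at 10 TPM or more and others at 10% or more of a gene described. Of markers it covered the highest, lowest and defining ones. Only some of these transcripts and markers are named in the text. The pathway genes Cideb, Hilpda, Insig1, Srebf2, Nr1h2, Nr1h3, Plin1, Plin5 and Ces1d fall outside that rule and were chosen after their values were seen. Alternatives were kallisto, TMM factors (edgeR 4.0.16, R 4.3.3), the median of 39 spike-ins, rescaled TPM, other minimum levels, posterior mean TPM and each library alone. Complete coding transcripts were added after the data were seen. Other steps ran in Python 3.11.15 (numpy 2.4.6, pandas 2.3.3, matplotlib 3.10.9, scipy 1.17.1). 1 gene of the pathway list is not reported here.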

Additional observations from a re-analysis of the deposited data

How the results depend on the processing

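The share of the 36 genes in nuclear protein-coding TPM was 1.03% as a mean, 1.04% by kallisto, and 0.885% to 1.17% with a single library left. The 34 genes at 1 TPM or more in both libraries became 35 by kallisto or with a minimum of 0.5 TPM, 31 with a minimum of 5 TPM, and 34 to 36 with a single library left. The count of genes over 1.5-fold apart, 5, was 4 by kallisto (Stard4 no longer), 6 with TMM factors (Lrp1 and Scp2 added, Gramd1a no longer), 4 with at least 5 TPM (Abcg1 no longer), 7 with no minimum (Soat2 and Gramd1c added), 4 on complete coding transcripts (Gramd1a no longer) and 5 under the other settings. The median log2 ratio, 0.033, was 0.104 by kallisto, 0.093 with TMM factors, -0.045 with spike-in scaling, 0.014 with rescaled TPM, and 0.066 with at least 5 TPM or no minimum. Its sign therefore depends on the scaling. The median over all genes tested was -0.091 by kallisto, 0.008 with TMM factors, -0.144 with spike-in scaling and -0.086 with rescaled TPM. In each of these settings the median of the members lay above it. Spike-in scaling and rescaling multiply every TPM of replicate 2 by a single factor. The cause of the difference between members and all genes was not tested. The log2 ratio of Stard3 to Stard4, -0.14, was 0.31 without replicate 2 and -0.59 without replicate 1, and that of Npc2 to Npc1, -0.33, was 0.017 on complete coding transcripts. No other of the ratios taken between 2 of the 36 genes changed sign by kallisto, with a single library left or on complete coding transcripts. By kallisto 65 of 81 gene levels, ratios and transcript shares moved by more than 1 SD, an SD over 2 libraries. The levels among them include the general scale of kallisto TPM, a median of 1.53 and 1.51 times the RSEM TPM. Most of the ratios between genes moved by less than 1 SD. Depth limits Soat2, with 5 counts in replicate 1. No paired analysis was possible because there is 1 group.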
